A study of Mus musculus with 49 samples.

Results

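*Yap1* and *Tead1*, a coactivator and a transcription factor of the Hippo pathway, were followed together with 6 of their known target genes in mouse kidneys after bilateral ischemia-reperfusion injury (IRI). The members were the rows of the deposited expression table whose symbol is *Cyr61*, *Ctgf*, *Ankrd1*, *Amotl2*, *Lats2*, *Axl*, *Yap1* or *Tead1*. They are 8 of 43309 genes in the table and were picked by symbol, with earlier results of these data known. All 8 passed the filter on low values, which asked for 3 or more libraries with an FPKM of 1 or more and left 14895 genes.

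The kidneys came from male C57BL/6NCrl mice that were 10 to 12 weeks old at surgery, in which both renal pedicles were clamped for 21 minutes and then released under ketamine and xylazine. IRI kidneys were taken at 2, 4, 24, 48 and 72 hours, 7, 14 and 28 days, and 6 and 12 months, and are called IRI2h to IRI12m. Sham mice had the same operation without clamping and were taken at 4 hours (SHAM4h), 24 hours (SHAM24h) and 12 months (SHAM12m), and mice without surgery are named by age in months (NORM3m, NORM9m, NORM15m). There were 49 libraries in 16 groups, with 3 kidneys in each group except for 4 in IRI6m. One label of SHAM12m replicate 3 names IRI and its other labels name sham, so it was kept among the sham kidneys.

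The Hippo pathway is a kinase cascade that restrains growth when cells are crowded. Its last kinases, LATS1 and LATS2, phosphorylate YAP and its relative TAZ and hold them in the cytoplasm. YAP that escapes this enters the nucleus and binds TEAD factors on DNA, where the pair raises genes such as *Cyr61*, *Ctgf* and *Ankrd1*. Because YAP is controlled mainly through its phosphorylation and location, the RNA level of *Yap1* is not a measure of YAP activity, and the target genes are the usual readout. Several of the targets act back on the pathway, among them *Amotl2* and *Lats2*. In the kidney the pathway is known for roles in tubule repair and in fibrosis.

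TEAD factors bind the sequence GGAATG, which reads CATTCC on the other strand. RefSeq promoter windows (GRCm38.p6), which run from 250 bases before to 50 bases after an annotated start, matched 6 of the 8 members, all but *Ctgf* and *Tead1*. The windows of *Cyr61*, *Ankrd1*, *Amotl2* and *Axl* are shown as examples, 5′ to 3′ on the strand of the gene, with the TEAD letters in capitals. They were picked from the targets that rose after injury, and a link between the motif and the change was not tested.
Cyr61 (chr3:145649936-145650235, minus strand): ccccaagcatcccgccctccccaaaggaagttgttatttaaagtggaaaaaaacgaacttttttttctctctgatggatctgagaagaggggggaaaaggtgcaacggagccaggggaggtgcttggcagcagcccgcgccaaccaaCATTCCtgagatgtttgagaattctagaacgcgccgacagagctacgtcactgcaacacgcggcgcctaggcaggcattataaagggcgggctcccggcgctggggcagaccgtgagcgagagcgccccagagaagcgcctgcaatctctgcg
Ankrd1 (chr19:36119795-36120094, minus strand): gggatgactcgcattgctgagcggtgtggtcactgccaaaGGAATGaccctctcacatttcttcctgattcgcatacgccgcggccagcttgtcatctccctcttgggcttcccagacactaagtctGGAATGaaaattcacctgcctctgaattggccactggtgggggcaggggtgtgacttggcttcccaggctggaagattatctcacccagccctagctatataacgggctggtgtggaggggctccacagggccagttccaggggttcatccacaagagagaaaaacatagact
Amotl2 (chr9:102717554-102717853, plus strand): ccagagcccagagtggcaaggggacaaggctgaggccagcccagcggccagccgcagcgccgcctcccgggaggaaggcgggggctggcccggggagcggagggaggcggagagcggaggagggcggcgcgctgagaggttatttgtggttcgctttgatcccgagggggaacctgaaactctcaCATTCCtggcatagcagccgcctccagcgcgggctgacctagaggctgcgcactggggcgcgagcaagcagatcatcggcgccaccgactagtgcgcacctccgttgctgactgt
Axl (chr7:25788684-25788983, minus strand): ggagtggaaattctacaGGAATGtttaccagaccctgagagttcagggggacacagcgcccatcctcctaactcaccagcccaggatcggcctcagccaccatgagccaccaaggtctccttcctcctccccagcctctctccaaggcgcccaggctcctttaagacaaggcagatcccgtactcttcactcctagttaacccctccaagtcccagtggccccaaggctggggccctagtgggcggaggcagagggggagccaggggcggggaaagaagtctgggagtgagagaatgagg

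The match in *Cyr61* began 103 bases before the start, those in *Ankrd1* 210 and 123 bases before it, that in *Amotl2* 65 bases and that in *Axl* 233 bases before it. *Yap1* itself held 1 match, 141 bases before its start. Of 2 annotated starts of *Lats2*, 1 held a match, which began at base 5 after the start, and the other held none. All 6 genes thus held at least 1 match, whereas 14.7% of 32851 windows and 16.6% of 27025 genes in the same collection did. These genes, other than *Yap1*, were chosen as known targets of YAP and TEAD, so this count does not stand apart from how they were chosen. The letters of AP-1, TGANTCA, were in none of the 6 genes and in 7.81% of windows. A match is a run of letters and does not show that a factor was bound.

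**Figure D1:**
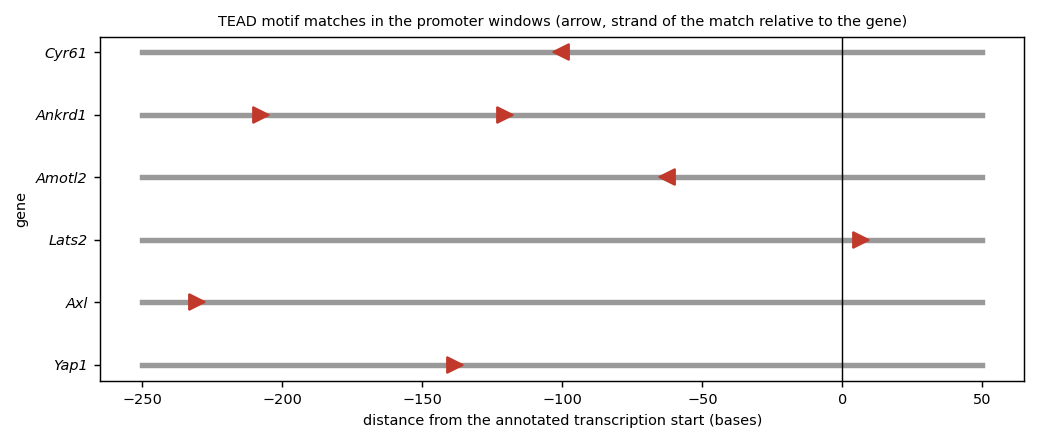
Positions of the TEAD letters in the promoter windows of 6 members, as distance in bases from the annotated transcription start, with grey bars for the window and arrows for the strand of the match relative to the gene. *Ankrd1* holds 2 matches and the other genes 1 each, and for *Lats2* the window with a match is drawn.

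Expression was given by the authors as FPKM, a fragment count scaled to the length of the transcript and the size of the library. Levels can thus be set side by side between genes. Between kidneys they depend on the scaling, as summed FPKM still ran from 432910 to 685010 over the libraries. Changes are differences of log2(FPKM + 0.1) from limma, fitted to all 49 libraries at once, with their standard error (SE). P values were adjusted by Benjamini-Hochberg over all 14895 genes within each comparison, and a gene whose adjusted p was under 0.05 is called higher or lower. The control was SHAM4h for the IRI groups of 2 and 4 hours, SHAM24h for those of 24 hours to 28 days and SHAM12m for those of 6 and 12 months. Age-matched kidneys without surgery, NORM9m and NORM15m, were a second control at 6 and 12 months. No sham kidneys of 48 hours to 28 days or of 6 months were analysed here. IRI6m and SHAM12m thus also differed in age and in time since surgery, as did IRI48h to IRI28d and SHAM24h, which cannot be told apart from IRI. Groups of 3 against 3 cannot go below 0.10 in an exact test of a single gene, so the tests rest on the spread shared by all groups.

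The values rest on 10628845 to 88535534 reads per library, and the member with the fewest reads behind a value, *Ankrd1*, had at least 59.0. Depth fell into sets, with 10628845 to 23714609 reads in IRI6m and the kidneys without surgery and 70187916 to 88535534 in SHAM12m and IRI12m. The other groups had 38229222 to 52261622. Depth and condition cannot be told apart where a comparison crosses these sets, as with IRI6m against SHAM12m. Markers of proximal tubule and of podocytes were above 0 in every library, as a kidney requires. In whole kidneys, more RNA of a gene per cell and more cells of a type that expresses it cannot be told apart. In several groups 1 kidney had most members above the group mean, as IRI14d replicate 1 and IRI12m replicate 1 did, and results that rest on such kidneys are given with and without them.

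*Cyr61* was already higher at 2 hours and changed by the largest factor among the 8 members. It encodes a secreted CCN protein that binds integrins at the cell surface. Its level was 14.3, 20.9 and 11.5 FPKM in the 3 SHAM4h kidneys. At 2 hours after IRI it was 797, 687 and 925 FPKM, and at 4 hours it was 468, 877 and 801 FPKM. Every early IRI kidney lay far above every sham kidney, and the ratio of the means was 51.6 at 2 hours and 45.9 at 4 hours. The log2 change was 5.71 (SE 0.52, adjusted p = 1.8e-10) at 2 hours and 5.505 (SE 0.52, adjusted p = 2.3e-10) at 4 hours.

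*Cyr61* then fell without returning to its control level within 28 days. The IRI24h kidneys held 157, 128 and 151 FPKM against 18.1, 11.03 and 16.2 FPKM in SHAM24h, a log2 change of 3.28 (SE 0.52, adjusted p = 2.3e-06). Between IRI4h and IRI24h the level itself fell by 2.25 on the log2 scale (SE 0.52, adjusted p = 3.5e-04), and the 2 groups did not overlap. At 48 hours the kidneys held 132, 102 and 66.1 FPKM, at 72 hours 46.6, 43.0 and 102 FPKM, and at 7 days 69.3, 60.4 and 108 FPKM. All 9 were above the SHAM24h kidneys, with log2 changes of 2.69, 1.99 and 2.37. The 14-day kidneys were widely spread at 274, 24.8 and 54.9 FPKM, with a log2 change of 2.28 that was 1.31 (adjusted p = 0.0227) without replicate 1 and 3.05 without replicate 2. At 28 days the log2 change was still 1.69 (SE 0.52, adjusted p = 0.0103), a call lost without SHAM24h replicate 2 (adjusted p = 0.0545) or IRI28d replicate 1 (adjusted p = 0.0538).

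Months after IRI *Cyr61* no longer passed the test. The IRI6m kidneys held 33.1, 18.0, 27.3 and 47.0 FPKM, and the IRI12m kidneys 96.1, 27.02 and 22.4 FPKM. All 7 lay above the SHAM12m kidneys at 14.9, 11.7 and 14.8 FPKM, and the adjusted p was 0.0550 at 6 months and 0.0668 at 12 months. With all 9 sham kidneys as the control both passed, with log2 changes of 1.02 (adjusted p = 0.0206) and 1.41 (adjusted p = 0.0152). The 12-month change against SHAM12m turned on 1 kidney, being 0.84 (adjusted p = 0.6904) without IRI12m replicate 1, and 1.75 (adjusted p = 0.0468) and 1.89 (adjusted p = 0.0420) without replicate 2 and replicate 3. Against the kidneys without surgery of the same age, which were higher at 12.2 to 29.5 FPKM in NORM9m and 18.8 to 29.5 FPKM in NORM15m, the ranges overlapped.

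*Ctgf*, the CCN protein that is a classical mediator of fibrosis, followed another course. At 2 hours it stood at 39.6, 54.5 and 43.5 FPKM and at 4 hours at 89.97, 82.0 and 47.9 FPKM. The SHAM4h kidneys were at 54.5, 82.3 and 48.99 FPKM, so that IRI and sham kidneys overlapped at both times. The log2 change was -0.41 (SE 0.36, 95% interval -1.14 to 0.33) at 2 hours and 0.23 (SE 0.36, 95% interval -0.51 to 0.96) at 4 hours.

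From 24 hours on *Ctgf* was higher than in SHAM24h at each time point up to 28 days. SHAM24h kidneys held 16.8, 13.7 and 23.7 FPKM, and the IRI24h kidneys 60.3, 81.1 and 69.1 FPKM. The highest levels came at 72 hours, with 133, 109 and 148 FPKM and a log2 change of 2.87 (SE 0.36, adjusted p = 5.3e-08). At 28 days the kidneys ranged from 50.1 to 144 FPKM, and the log2 change was 2.25 (SE 0.36, adjusted p = 7.1e-06). *Ctgf* was also the only member that was higher at 6 months against both controls. The IRI6m kidneys held 85.3, 72.6, 84.3 and 128 FPKM, above NORM9m by 1.67 (SE 0.34, adjusted p = 0.00127) and above SHAM12m by 1.28 (SE 0.34, adjusted p = 0.00209) on the log2 scale. At 12 months the log2 change was 0.69 (SE 0.36, adjusted p = 0.316) against SHAM12m.

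The choice of sham kidneys bore on *Ctgf* more than on *Cyr61*. SHAM4h was above SHAM24h by 1.77 on the log2 scale (SE 0.36, adjusted p = 2.1e-04), and no library of the 2 groups overlapped. In SHAM4h against SHAM24h, 6.57% of all genes tested were higher and 26.5% lower, and among the members *Ctgf* was higher, *Tead1* lower and 6 were not called. The level of *Ctgf* in the IRI kidneys hardly differed between 4 and 24 hours, with means of 73.3 ± 22.3 and 70.2 ± 10.4 FPKM (SD, n = 3) and a log2 difference of -0.02 (95% interval -0.76 to 0.71). Against NORM3m, in place of sham, the log2 change of *Ctgf* was 1.18 (adjusted p = 0.00988) at 4 hours and 1.16 at 24 hours. Against all 9 sham kidneys it was 1.05 (adjusted p = 0.00597) at 4 hours. Its early call thus depended on the control, whereas its later calls held with each control tried.

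*Ankrd1* encodes an ankyrin repeat protein best known from heart muscle, where mechanical load raises it. It was nearly silent in sham kidneys of the first day, at 0.742, 0.673 and 0.567 FPKM in SHAM4h and 0.638, 0.720 and 0.613 FPKM in SHAM24h. At 2 hours it was 1.51, 1.16 and 1.19 FPKM, above every SHAM4h kidney but short of the threshold (log2 change 0.87, SE 0.43, adjusted p = 0.105). At 4 hours it reached 4.82, 6.10 and 4.38 FPKM, a log2 change of 2.77 (SE 0.43, adjusted p = 5.7e-06). Between 2 and 4 hours it rose by 1.90 on the log2 scale (SE 0.43, adjusted p = 0.00134), whereas *Cyr61* differed by -0.21 (95% interval -1.26 to 0.84).

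The highest levels of *Ankrd1* came at 7 days, when the kidneys held 24.6, 20.1 and 23.7 FPKM. That was a ratio of means of 34.7 and a log2 change of 4.92 (SE 0.43, adjusted p = 5.6e-11). From 24 hours to 28 days its log2 change stayed between 3.66 and 4.92. The 14-day kidneys held 25.7, 7.34 and 4.40 FPKM, and the log2 change of 3.66 was 2.94 (adjusted p = 7.8e-07) without replicate 1. At 28 days they held 11.3, 9.61 and 18.6 FPKM. By 12 months they held 4.94, 1.83 and 2.48 FPKM, a log2 difference of -2.12 from 28 days (SE 0.43, adjusted p = 7.6e-04) with no overlap.

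At 6 and 12 months the result for *Ankrd1* turned on the control. SHAM12m kidneys held 0.501, 0.953 and 1.601 FPKM, while the kidneys without surgery held 4.02, 3.34 and 3.76 FPKM in NORM9m and 2.14, 3.84 and 7.74 FPKM in NORM15m. SHAM12m differed from NORM15m by -2.003 on the log2 scale (SE 0.43, adjusted p = 4.5e-04), across the depth sets. IRI12m was above SHAM12m by 1.52 (SE 0.43, adjusted p = 0.0186) and differed from NORM15m by -0.49 (SE 0.43, adjusted p = 0.407). IRI6m was above SHAM12m by 2.79 (SE 0.40, adjusted p = 7.3e-07), and above NORM9m by 0.90 (SE 0.40, adjusted p = 0.178), although all 4 IRI6m kidneys lay above the 3 NORM9m kidneys. The call at 12 months was lost without SHAM12m replicate 1 (adjusted p = 0.189), without SHAM12m replicate 2 (adjusted p = 0.0547) and without IRI12m replicate 1 (adjusted p = 0.249). With quantile normalization it was 1.27 (adjusted p = 0.0560).

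As *Ankrd1* is a muscle gene, markers of striated muscle were read beside it. *Ckm*, *Myh1* and *Myh4* were below 0.1 FPKM in every library and *Myh6* was at most 0.480 FPKM. Of 8 such markers 2 passed the filter, and *Acta1*, skeletal muscle actin, was higher at 7 days, at 0.841 ± 0.149 FPKM against 0.103 ± 0.0662 FPKM in SHAM24h (SD, n = 3; log2 change 2.26, adjusted p = 9.1e-05). The summed level of the 8 ran from 0.314 to 2.91 FPKM over all libraries and was 1.99 to 2.41 FPKM in IRI7d and 0.726 to 1.06 FPKM in SHAM24h, and its part in the *Ankrd1* result was not tested.

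**Figure D2:**
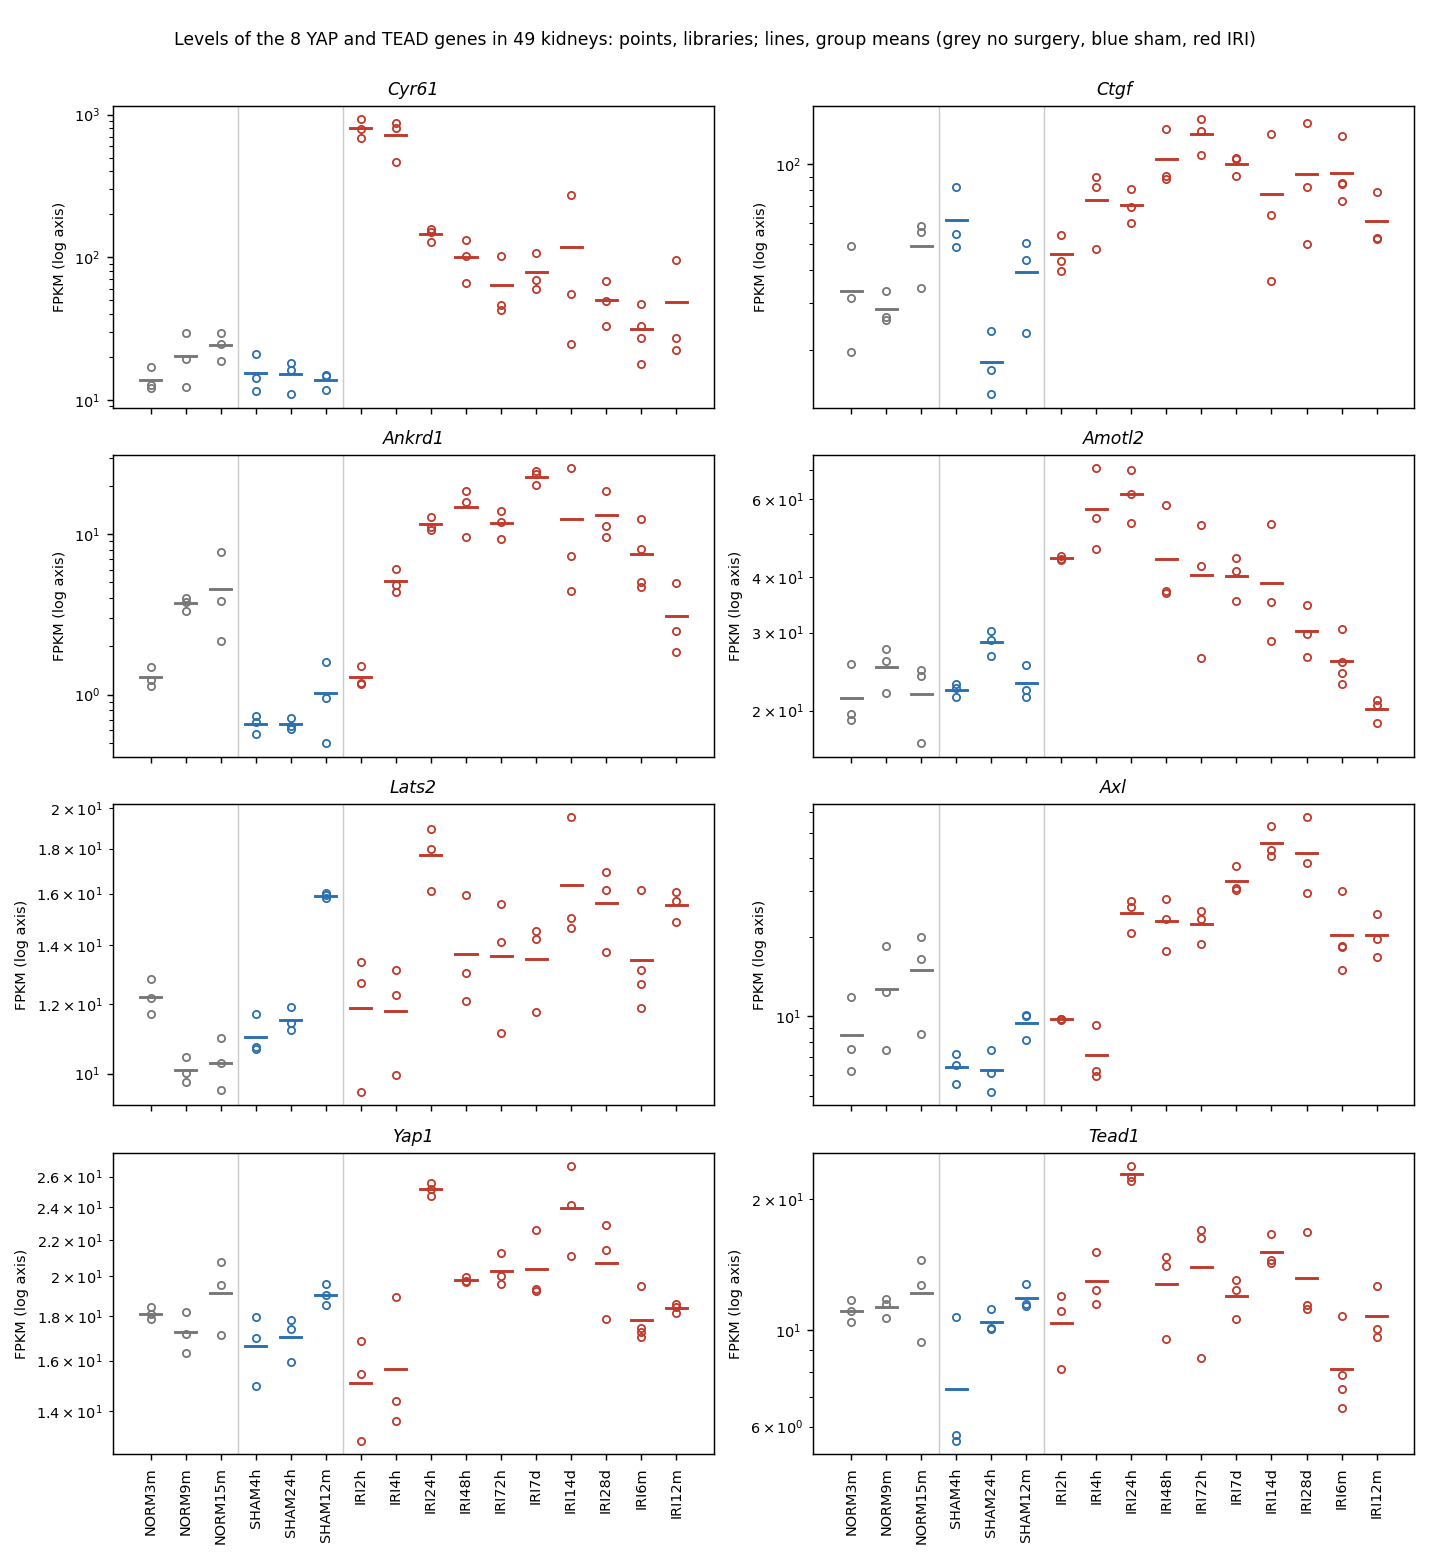
Levels of the 8 members in FPKM on log axes over the 16 groups, with a circle for each kidney and a line for the group mean (grey, no surgery; blue, sham; red, IRI). *Cyr61* stands highest at 2 and 4 hours, *Ankrd1* at 7 days, *Axl* at 14 and 28 days, and *Tead1* at 24 hours, where its 3 kidneys at 22.1 to 23.8 FPKM lie above every other kidney.

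*Axl*, a receptor tyrosine kinase of the TAM family that binds GAS6, was first called at 24 hours. It stood at 9.79, 9.74 and 9.75 FPKM in IRI2h and 9.27, 5.92 and 6.18 FPKM in IRI4h, against 6.53, 5.53 and 7.18 FPKM in SHAM4h. Neither time point passed the test, although the 3 IRI2h kidneys lay above the SHAM4h kidneys (log2 change 0.61, SE 0.28, adjusted p = 0.0863). The IRI24h kidneys held 20.9, 27.6 and 26.1 FPKM and the SHAM24h kidneys 5.17, 6.09 and 7.43 FPKM, a log2 change of 1.98 (SE 0.28, adjusted p = 4.3e-07).

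The level of *Axl* reached 53.3, 42.9 and 40.7 FPKM at 14 days, a log2 change of 2.86 (SE 0.28, adjusted p = 6.3e-10), and 29.4, 38.5 and 57.3 FPKM at 28 days. At 12 months it was 24.6, 16.8 and 19.7 FPKM, a log2 difference of -0.99 from 28 days (SE 0.28, adjusted p = 0.0157), but still above SHAM12m by 1.09 (SE 0.28, adjusted p = 0.00983). The difference from SHAM12m missed the threshold without SHAM12m replicate 1 (adjusted p = 0.0599) and without IRI12m replicate 1 (adjusted p = 0.0990). That from 28 days was -0.74 without IRI28d replicate 3 (adjusted p = 0.192), and it also missed the threshold without IRI12m replicate 2 (adjusted p = 0.115) or replicate 3 (adjusted p = 0.0554). Against NORM15m, at 8.54, 20.1 and 16.5 FPKM, IRI12m overlapped.

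Macrophages and fibroblasts also express *Axl*. Summed markers of both were also above SHAM24h from 24 hours to 28 days. The mean macrophage sum was highest in IRI7d, IRI14d and IRI28d, where the mean of *Axl* was highest too, at 32.8, 45.6 and 41.8 FPKM. All 8 macrophage markers, among them *Csf1r* and *C1qa*, were higher at 7, 14 and 28 days, and their summed level was 597 to 737 FPKM in IRI7d, 473 to 933 FPKM in IRI14d and 389 to 769 FPKM in IRI28d. It was 44.3 to 55.3 FPKM in SHAM24h, and no macrophage marker was at 0 in any library. Of 8 stromal and myofibroblast markers, 7 were higher at 24 hours and 8 at 7 days, beside 32.5% and 33.8% of all genes. Their sum was 415 to 544 FPKM in IRI24h, 593 to 816 FPKM in IRI7d and 80.9 to 95.4 FPKM in SHAM24h. The mean stromal sum was highest in IRI48h, with a range of 674 to 947 FPKM, and the range was 233 to 491 FPKM in IRI28d. The macrophage sum was 118 to 149 FPKM in IRI24h and 189 to 473 FPKM in IRI72h. The means of *Axl* in those 2 groups were 24.8 and 22.5 FPKM. At 2 and 4 hours, when *Cyr61* was highest, 2 and 1 of the 8 stromal markers and 0 and 2 of the 8 macrophage markers were higher. The shares of all genes higher were 22.1% and 17.7%. The stromal sum was then 105 to 127 and 99.7 to 139 FPKM against 80.2 to 112 FPKM in SHAM4h. Injured tubule markers summed to 200 to 284 and 494 to 895 FPKM at these times, against 105 to 131 FPKM in SHAM4h. The part of these cells in the changes of *Axl*, *Ctgf*, *Ankrd1* and *Cyr61* was not tested.

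*Amotl2* encodes an angiomotin that holds YAP at cell junctions. Its 3 IRI2h kidneys were close together at 44.0, 43.8 and 44.7 FPKM, above SHAM4h at 21.5, 23.0 and 22.5 FPKM (log2 change 0.98, SE 0.20, adjusted p = 1.8e-04). It stayed up at 46.3, 70.4 and 54.3 FPKM at 4 hours, a log2 change of 1.33 (SE 0.20, adjusted p = 3.2e-06), and at 53.0, 61.7 and 69.7 FPKM at 24 hours, a log2 change of 1.09 (SE 0.20, adjusted p = 2.2e-05). It was thus early like *Cyr61*, but its change was small.

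After 24 hours *Amotl2* drew back towards its controls. At 48 hours it was 58.1, 36.9 and 37.3 FPKM against 28.9, 26.6 and 30.3 FPKM in SHAM24h (log2 change 0.59, adjusted p = 0.0126), and without replicate 1 the change was 0.38 (adjusted p = 0.147). At 7 days the log2 change was 0.49 (adjusted p = 0.0400), while at 72 hours and 14 days it was 0.44 (adjusted p = 0.0639) and 0.40 (adjusted p = 0.0968). The 7-day call did not hold under 7 of the alternatives tried. At 28 days the change was 0.07 (95% interval -0.33 to 0.48), and at 12 months the kidneys held 20.6, 18.7 and 21.1 FPKM.

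*Lats2*, the kinase that phosphorylates YAP and is itself induced by it, varied little. Its group means ran from 10.1 FPKM in NORM9m to 17.7 FPKM in IRI24h, a ratio of 1.75. The IRI24h kidneys at 16.1, 19.0 and 18.0 FPKM lay above SHAM24h at 11.2, 11.9 and 11.4 FPKM, with a log2 change of 0.61 (SE 0.13, adjusted p = 1.8e-04). At 2 and 4 hours the change was 0.09 at both times, with 95% intervals of -0.17 to 0.36 and -0.18 to 0.35. It passed again at 14 days (log2 change 0.49, SE 0.13, adjusted p = 0.00194) and at 28 days (0.43, SE 0.13, adjusted p = 0.00979), the latter not without IRI28d replicate 3 (adjusted p = 0.0646). SHAM12m, at 15.8, 16.0 and 15.9 FPKM, was as high as IRI12m at 15.7, 14.9 and 16.1 FPKM, and was above NORM15m by 0.63 on the log2 scale (SE 0.13, adjusted p = 3.3e-04), across the depth sets.

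*Yap1* was nearly level over the series, from a mean of 15.1 FPKM in IRI2h to 25.2 FPKM in IRI24h. The IRI24h kidneys held 25.2, 24.7 and 25.6 FPKM and the SHAM24h kidneys 17.8, 17.4 and 15.9 FPKM. The log2 change was 0.56 (SE 0.10, adjusted p = 3.2e-05), beside a median of 0.18 over all genes tested. At 2 and 4 hours, when *Cyr61* was highest, it was -0.14 (95% interval -0.36 to 0.07) and -0.10 (95% interval -0.31 to 0.11), and against NORM3m *Yap1* was lower at 2 hours, with a log2 change of -0.27 (adjusted p = 0.0368). At 14 days the kidneys held 26.7, 24.1 and 21.1 FPKM (log2 change 0.48, SE 0.10, adjusted p = 2.3e-04). Calls at 72 hours, 7 days and 28 days were small, with log2 changes of 0.25, 0.25 and 0.28 and adjusted p of 0.0459, 0.0436 and 0.0413, and each was lost on leaving out any 1 of the SHAM24h kidneys. At 7 days all genes had a median of 0.17, and after quantile normalization the change of *Yap1* was 0.08 (adjusted p = 0.468).

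*Tead1*, one of 4 DNA-binding partners of YAP, peaked sharply at 24 hours. The IRI24h kidneys held 22.1, 22.5 and 23.8 FPKM and SHAM24h 11.2, 10.1 and 10.1 FPKM, a log2 change of 1.12 (SE 0.22, adjusted p = 6.3e-05). By 48 hours it was back at 14.0, 9.55 and 14.7 FPKM, having dropped by 0.86 on the log2 scale (SE 0.22, adjusted p = 0.00389). It was not called at 48 or 72 hours or at 7 or 28 days, and at 14 days it passed narrowly (log2 change 0.53, adjusted p = 0.0434), a call lost on leaving out any 1 of the 6 libraries.

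The early calls of *Tead1* rested on SHAM4h. Its SHAM4h kidneys held 10.7, 5.57 and 5.72 FPKM, and IRI2h held 12.0, 11.1 and 8.16 FPKM, so the groups overlapped. The log2 change was 0.55 (SE 0.22, adjusted p = 0.0449) at 2 hours and 0.88 (SE 0.22, adjusted p = 0.00252) at 4 hours. The call at 2 hours was lost without SHAM4h replicate 2 or 3 (adjusted p = 0.227 and 0.203) and without IRI2h replicate 1 or 2 (adjusted p = 0.157 and 0.111). SHAM4h was also low beside SHAM24h, with a log2 difference of -0.57 (adjusted p = 0.0424), and beside NORM3m, with -0.65 (adjusted p = 0.0285). Against NORM3m the change was -0.11 (adjusted p = 0.731) at 2 hours and 0.22 (adjusted p = 0.457) at 4 hours. At 6 months *Tead1* was lower than in SHAM12m, with a log2 change of -0.56 (SE 0.21, adjusted p = 0.0223) and 10.8, 7.86, 7.34 and 6.61 FPKM against 11.4, 12.8 and 11.5 FPKM. It was the only member called lower in an IRI group against its main control, and the call was lost without SHAM12m replicate 2, IRI6m replicate 3 or IRI6m replicate 4 (adjusted p = 0.0805, 0.0545 and 0.0822). Against the age-matched NORM9m the log2 change of *Tead1* was -0.49 (adjusted p = 0.146).

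**Figure D3:**
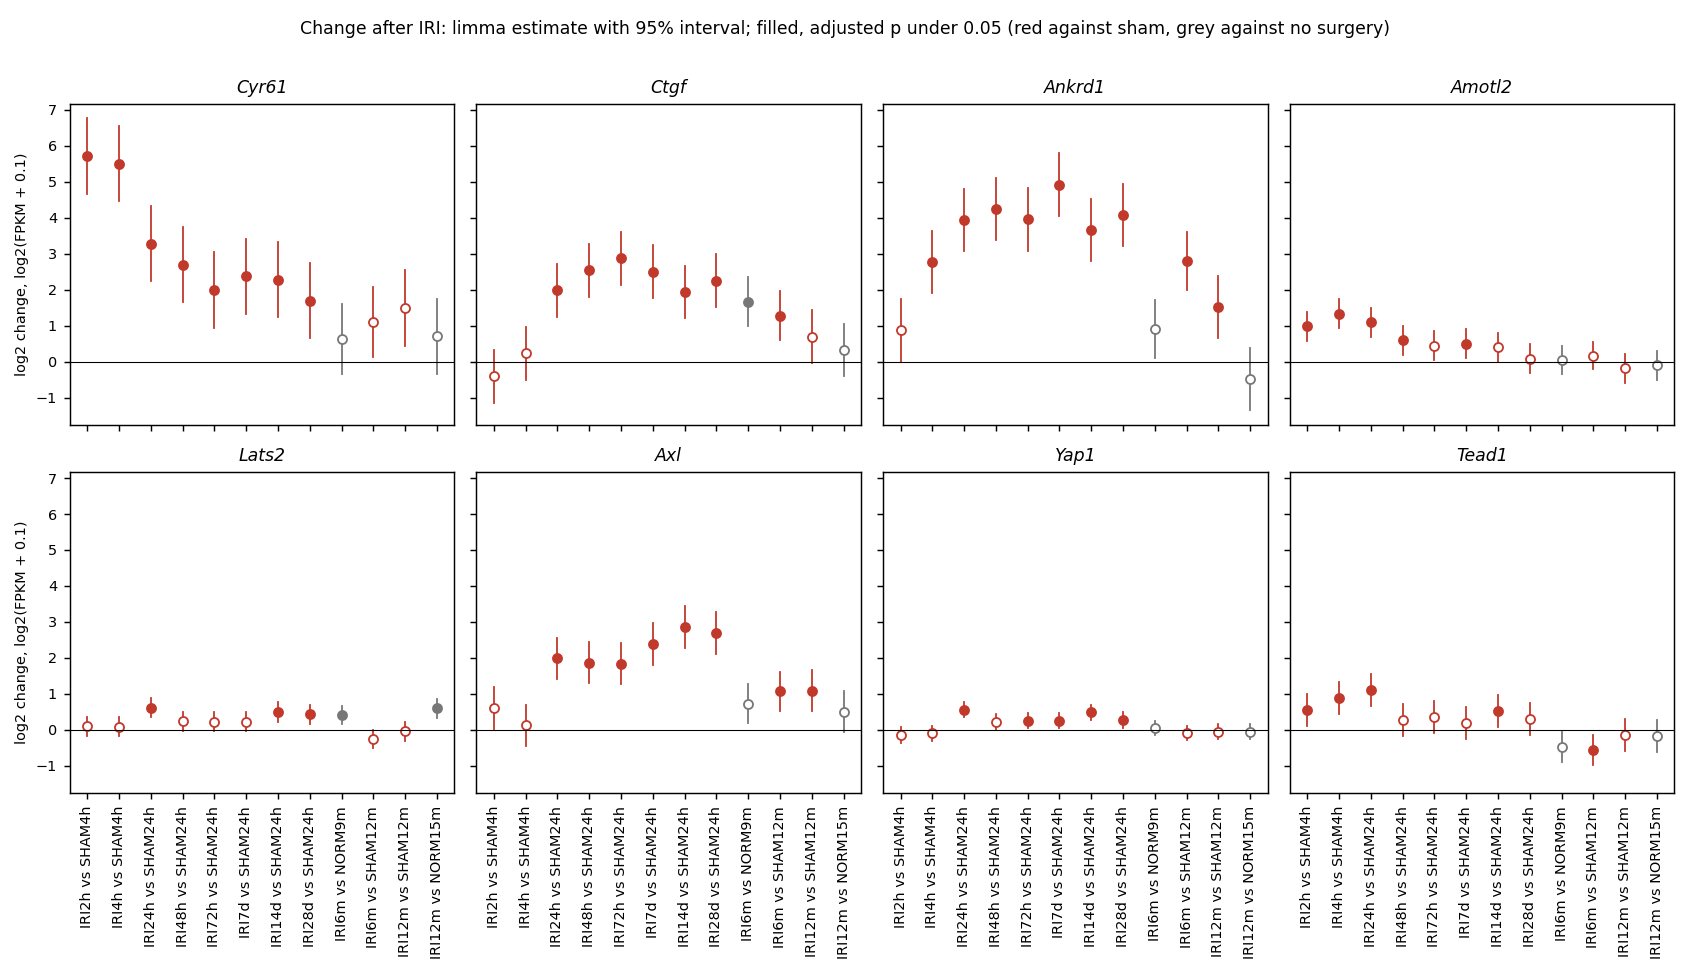
Log2 change of each member in IRI kidneys against sham (red) and against kidneys without surgery (grey), as limma estimates of log2(FPKM + 0.1) with 95% intervals, filled where the adjusted p was under 0.05. The early rise of *Cyr61* to 5.71, the later and longer rise of *Ankrd1* to 4.92 and of *Axl* to 2.86, and the small changes of *Lats2* and *Yap1* stand out.

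Read by time point, the calls divided early and joined at 24 hours, where the control also changed from SHAM4h to SHAM24h. *Ctgf* joined with little change in its IRI kidneys, at means of 73.3 FPKM in IRI4h and 70.2 FPKM in IRI24h. Its sham means were 61.9 FPKM in SHAM4h and 18.1 FPKM in SHAM24h. At 2 hours 3 of 8 were higher (*Cyr61*, *Amotl2* and *Tead1*) and 0 lower, beside 22.1% of all genes tested that were higher and 17.9% that were lower. At 4 hours 4 of 8 were higher, *Ankrd1* being added, and 0 lower, beside 17.7% and 10.5%. At 24 hours all 8 were higher, beside 32.5% of all genes that were higher and 15.4% that were lower. In each of the 8 every IRI24h kidney lay above every SHAM24h kidney, which was so for 48.1% of all genes tested. The median log2 change of the 8 was 0.58 at 2 hours, 0.55 at 4 hours and 1.55 at 24 hours, and over all genes it was 0.03, 0.03 and 0.18.

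From 48 hours to 28 days the count stayed at 5 to 7, with 0 lower at each time. It was 5 of 8 higher at 48 hours, beside 28.5% of all genes higher and 23.1% lower, and 5 at 72 hours, beside 25.4% and 23.1%. It was 6 at 7 days beside 33.8% and 14.5%, 7 at 14 days beside 30.9% and 18.9%, and 6 at 28 days beside 22.3% and 9.86%. At 6 months 3 were higher (*Ctgf*, *Ankrd1* and *Axl*) and 1 lower against SHAM12m, beside 30.4% and 20.9%. Against NORM9m 2 were higher (*Ctgf* and *Lats2*) and 0 lower, beside 6.25% and 2.07%, and the call of *Lats2* (log2 change 0.40, adjusted p = 0.0338) was lost without any 1 of 5 libraries, all 3 of NORM9m among them. At 12 months 2 were higher against SHAM12m (*Ankrd1* and *Axl*) and 0 lower, beside 8.44% and 0.369%, and 1 against NORM15m (*Lats2*, log2 change 0.59, SE 0.13, adjusted p = 7.2e-04) and 0 lower, beside 20.9% and 10.5%. The comparisons with one sham group share its 3 kidneys. In IRI6m against SHAM12m, 3 of 4 brown fat markers were also higher, with sums of 3.14 to 58.1 FPKM in IRI6m and 0.0119 to 2.08 FPKM in SHAM12m. Such sums were not particular to IRI6m. They ran from 1.42 to 111 FPKM in NORM3m, another control used here, and from 0.0116 to 45.0 FPKM in IRI24h, and reached 20.2 FPKM in SHAM4h replicate 3. Stromal markers (8 of 8 higher) summed to 242 to 577 FPKM in IRI6m and 42.6 to 66.5 FPKM in SHAM12m, macrophage markers (6 of 8 higher) to 182 to 570 and 74.5 to 118 FPKM, and injured tubule markers (6 of 7 higher) to 159 to 242 and 83.9 to 91.4 FPKM. The part of these cells in the members' changes was not tested.

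The scaling of the libraries bore on these backgrounds. Quantile normalization, which gives each library the same distribution, left all 8 members higher at 24 hours and 4 higher at 4 hours, while the genes higher and lower became 23.9% and 23.0% at 24 hours and 13.1% and 15.9% at 4 hours. At 7 days 4 members were then higher, without *Amotl2* and *Yap1*, beside 24.2% and 27.3%. At 14 days 6 were higher beside 24.3% and 26.6%, and at 28 days 5 beside 17.3% and 19.8%. At 6 months 3 were higher and 2 lower against SHAM12m beside 24.6% and 29.8%, and at 12 months 1 was higher beside 5.69% and 1.91%.

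The members were also compared between successive IRI groups, with no sham value removed. From 2 to 4 hours 1 member was higher (*Ankrd1*) and 0 lower, beside 13.7% and 10.6% of all genes. From 4 to 24 hours *Ankrd1*, *Lats2*, *Axl*, *Yap1* and *Tead1* were higher, 5 of 8 beside 42.9% of all genes, and *Cyr61* was lower beside 13.7%. The call of *Ankrd1* there was lost without IRI4h replicate 3 (adjusted p = 0.0639), without IRI24h replicate 2 (adjusted p = 0.0593) and with quantile normalization (log2 difference 0.81, adjusted p = 0.108). From 24 to 48 hours *Lats2*, *Yap1* and *Tead1* were lower, 3 of 8 beside 17.1%, and 0 were higher beside 7.88%. The call of *Lats2* there was lost without any 1 of 4 libraries. No member passed from 48 to 72 hours, where 1.15% of all genes were higher and 1.74% lower, from 72 hours to 7 days (22.0% and 3.73%) or from 14 to 28 days (11.4% and 6.77%). From 7 to 14 days *Ankrd1* was lower, with a log2 difference of -1.26 (adjusted p = 0.0289), beside 15.4% of all genes, a call lost without any 1 of 4 libraries, and 0 members were higher beside 8.35%. From 28 days to 12 months *Ankrd1*, *Amotl2* and *Axl* were lower, 3 of 8 beside 10.1%, and 0 were higher beside 3.67%. *Amotl2* (log2 difference -0.58, adjusted p = 0.0470) lost its call there without any 1 of 5 libraries.

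The change against the own sham group was then compared between 4 and 24 hours, which asks whether an effect differed between the 2 times. It was smaller at 24 hours for *Cyr61*, by -2.22 on the log2 scale (SE 0.73, adjusted p = 0.0156). It was larger at 24 hours for *Axl* by 1.86 (SE 0.40, adjusted p = 4.0e-04), for *Ctgf* by 1.75 (SE 0.51, adjusted p = 0.00692), for *Yap1* by 0.66 (SE 0.15, adjusted p = 6.1e-04) and for *Lats2* by 0.52 (SE 0.18, adjusted p = 0.0236). These are 4 of 8 members higher beside 22.4% of all genes, and 1 lower beside 15.1%. The difference for *Lats2* missed the threshold without SHAM4h replicate 2, IRI4h replicate 3 or IRI24h replicate 2 (adjusted p = 0.0577, 0.0959 and 0.0609). For *Ankrd1*, *Amotl2* and *Tead1* the difference was 1.17, -0.23 and 0.24, with 95% intervals of -0.06 to 2.40, -0.80 to 0.34 and -0.39 to 0.87. Between 28 days and 12 months the effect was smaller at 12 months for *Ankrd1*, by -2.56 (SE 0.61, adjusted p = 0.0137), and for *Axl*, by -1.59 (SE 0.40, adjusted p = 0.0206), 2 of 8 members beside 1.87%, with 0 higher beside 1.86%. Both lost this call without SHAM12m replicate 3 (adjusted p = 0.0605 and 0.0527), IRI28d replicate 3 (0.0646 and 0.0912) or IRI12m replicate 2 (0.0607 and 0.0725), and *Axl* also without SHAM24h replicate 1 (0.0699) or SHAM12m replicate 2 (0.0571). This second contrast sets kidneys of different depth against each other.

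Among control kidneys, *Ankrd1* was higher at 9 months than at 3 months of age by 1.46 (SE 0.43, adjusted p = 0.0229) and at 15 months by 1.58 (SE 0.43, adjusted p = 0.0189), from 1.23, 1.12 and 1.497 FPKM in NORM3m. It was the only member called in either comparison, beside 8.80% and 5.47% of all genes that were higher and 4.65% and 3.44% that were lower. *Axl* was 8.52 ± 2.95, 12.8 ± 5.56 and 15.1 ± 5.92 FPKM (SD, n = 3) at the 3 ages, which did not pass. Sham surgery against NORM3m gave 1 call, the lower *Tead1* in SHAM4h beside 15.4% of all genes, with 6.81% higher, and 0 in SHAM24h beside 16.0% higher and 4.90% lower. SHAM12m against NORM15m gave *Lats2* higher beside 18.2% and *Ankrd1* lower beside 17.4%. Injured tubule markers summed to 83.9 to 91.4 FPKM in SHAM12m and 107 to 303 FPKM in NORM15m (6 of 7 lower), stromal markers to 42.6 to 66.5 and 112 to 343 FPKM (8 of 8 lower) and macrophage markers to 74.5 to 118 and 118 to 222 FPKM (1 of 8 lower), and their part was not tested.

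Ordered by level over the 16 groups, from mean log2 values, neighbours mostly overlapped. *Lats2* and *Yap1* had no gap among their 15 neighbouring pairs, so that no adjacent groups differed beyond the spread of their kidneys. *Cyr61* had 1 gap, between IRI24h and IRI4h, and *Ankrd1* had 2, between IRI2h and IRI12m and between IRI48h and IRI7d. *Ctgf* had 1 above SHAM24h, its lowest group, *Amotl2* 1 below IRI4h, *Axl* 1 below IRI7d and *Tead1* 1 below IRI24h. The ratio of the highest to the lowest group mean was 58.2 for *Cyr61*, 34.7 for *Ankrd1*, 7.33 for *Axl*, 7.20 for *Ctgf*, 3.11 for *Tead1*, 3.05 for *Amotl2*, 1.75 for *Lats2* and 1.67 for *Yap1*. The lowest group for *Cyr61* was SHAM12m, at a mean of 13.8 ± 1.82 FPKM (SD, n = 3).

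In 7 of the 16 groups 1 kidney had 7 or 8 of the 8 members above the group mean: IRI48h, IRI7d, IRI14d and IRI12m in replicate 1 and IRI72h, IRI28d and NORM15m in replicate 3. Over these 7 kidneys the median deviation of the 8 members was largest in IRI14d, at 0.37 on the log2 scale, and smallest in IRI7d, at 0.095. The share of all genes above their group mean was not counted, so these counts cannot be read as particular to the members. Summed FPKM in replicates 1 to 3 was 536380, 454600 and 432910 in IRI28d and 475160, 434110 and 475230 in IRI14d, and its part was not tested. In IRI14d replicate 1, 7 of 8 members were above their group mean, *Cyr61* by 1.93, *Ankrd1* by 1.44 and *Ctgf* by 0.95 on the log2 scale, and in replicate 3 none of the 8 was. Macrophage markers summed to 933 FPKM in replicate 1 and to 484 and 473 FPKM in the others, and injured tubule markers to 772, 412 and 388 FPKM. Without replicate 1, 6 of the 7 calls at 14 days held, and *Tead1* missed the threshold. In IRI12m replicate 1, 7 of 8 members were likewise above the mean, and its injured tubule markers summed to 312 FPKM against 120 and 125 FPKM. Without it, neither call at 12 months against SHAM12m held. Without the doubtfully labelled SHAM12m replicate 3, both held, with log2 changes of 1.88 for *Ankrd1* and 1.14 for *Axl*.

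**Figure D4:**
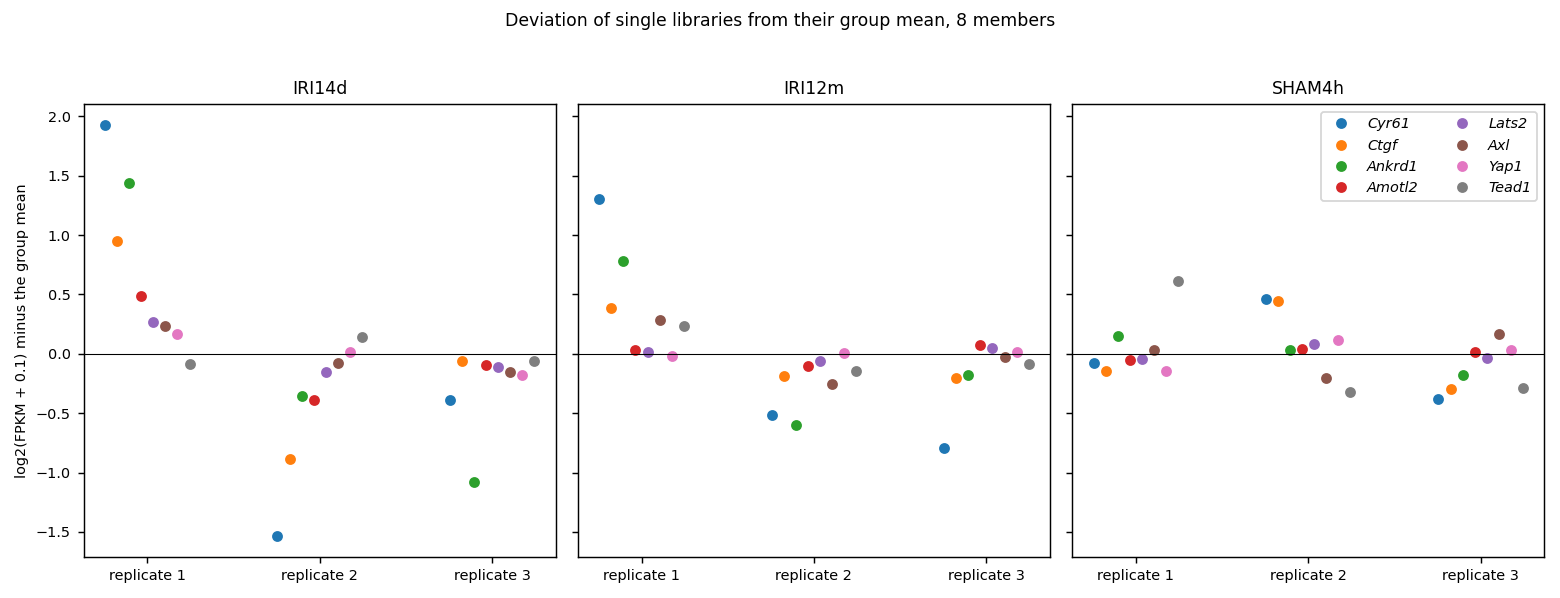
Log2(FPKM + 0.1) of each member minus its group mean in the 3 kidneys of IRI14d, IRI12m and SHAM4h, with a colour for each gene. IRI14d replicate 1 and IRI12m replicate 1 have 7 of 8 members above 0, led by *Cyr61* at 1.93 and 1.31, and SHAM4h replicate 1 stands out in *Tead1* at 0.61.

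The wider pathway was read from lists of genes that were not members. Of 18 Hippo kinases and upstream regulators, 5 were higher and 3 lower at 48 hours, beside 28.5% and 23.1% of all genes, with a median log2 change of 0.08 against 0.02 over all genes. The largest were *Frmd6*, a FERM protein upstream of the kinases, with a log2 change of 1.38 (adjusted p = 2.0e-05), and the kinase *Map4k4*, which rose from 8.72 ± 0.0623 to 18.5 ± 3.61 FPKM (SD, n = 3; log2 change 1.06, adjusted p = 6.3e-05). *Amotl1*, a relative of *Amotl2*, and *Sav1*, the scaffold of the kinases, changed by 0.93 and 0.90. *Mob1a*, the LATS cofactor, was the fifth, and *Lats1*, the relative of *Lats2*, had a log2 change of -0.12 (adjusted p = 0.575). At 24 hours 9 of the 18 were higher and none lower, beside 32.5% and 15.4% of all genes. *Nf2*, *Taok2* and *Wwc2*, which act upstream of the LATS kinases, were the 3 lower at 48 hours.

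Among TAZ (*Wwtr1*), the other TEAD genes and the VGLL cofactors, 6 of 8 were tested and 4 were higher at 48 hours, beside 28.5% of all genes. *Vgll3*, a TEAD cofactor, rose from 0.365 ± 0.071 to 2.90 ± 1.10 FPKM (SD, n = 3), a log2 change of 2.63 (SE 0.40, adjusted p = 1.0e-06). *Tead2* rose from 1.02 ± 0.039 to 2.80 ± 0.36 FPKM, by 1.37 on the log2 scale (adjusted p = 1.4e-05), and *Tead4* by 0.53 (adjusted p = 0.0491). *Wwtr1* rose by 0.41 (SE 0.14, adjusted p = 0.0159). At 48 hours *Tead1* itself had a log2 change of 0.26 (SE 0.22, adjusted p = 0.330). Per length, *Tead1* stood above *Tead2*, *Tead3* and *Tead4* in the controls, *Tead4* reaching at most 1.99 FPKM in any library.

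Of 16 other genes of a YAP and TAZ target signature, 15 were tested and 12 were higher at 24 hours, with none lower, beside 32.5% and 15.4% of all genes. Their median log2 change was 0.83, between 1.55 for the members and 0.18 for all genes. *Myof*, a membrane repair protein, rose from 5.41 ± 0.83 to 42.5 ± 4.06 FPKM (SD, n = 3), a log2 change of 2.96 (SE 0.37, adjusted p = 2.7e-08). *Gadd45a*, a growth arrest gene that many stresses raise, changed by 1.82, *F3*, which encodes tissue factor, by 1.79 and *Fjx1* by 1.53. The signature counted 4 of 15 higher at 2 hours, 6 at 4 hours and 5 at 48 hours, beside 22.1%, 17.7% and 28.5% of all genes. *Nt5e*, *Igfbp3* and *Tgfb2* were the 3 not called at 24 hours.

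Targets of MRTF and SRF, factors that read actin and share several genes with YAP, were counted as well. At 4 hours 5 of 10 were higher and none lower, beside 17.7%, and at 24 hours 9 of 10 were higher, beside 32.5%. At 4 hours *Zyx*, a focal adhesion protein, was 59.0 ± 5.93 FPKM against 19.5 ± 0.89 FPKM in SHAM4h (SD, n = 3; log2 change 1.59, adjusted p = 7.2e-08), and *Srf* itself rose by 1.33 (adjusted p = 1.8e-07). *Fhl2*, a LIM protein, and *Vcl*, which encodes vinculin, changed by 1.20 and 0.95, also at 4 hours.

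The relatives of the ligands and the receptor were uneven. Of 4 other CCN genes, 2 were tested, and *Wisp1* rose at 7 days from 0.534 ± 0.14 to 3.22 ± 0.54 FPKM (SD, n = 3), a log2 change of 2.40 (SE 0.39, adjusted p = 4.2e-06), where 33.8% of all genes were higher. Per length it stayed far below *Cyr61* and *Ctgf*. Of the other TAM receptors and their ligands, 3 of 4 were higher at 14 days, beside 30.9% of all genes. *Pros1*, a TAM ligand, changed by 1.42 (adjusted p = 4.0e-04), the receptor *Tyro3* by 0.84 (adjusted p = 0.00318) and *Gas6*, the ligand of AXL, by 0.48 (adjusted p = 0.00996). *Gas6* was the most abundant of them, at 274 ± 20.3 FPKM in IRI14d (SD, n = 3). *Mertk*, the macrophage TAM receptor, had a log2 change of -0.28 (adjusted p = 0.216).

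**Figure D5:**
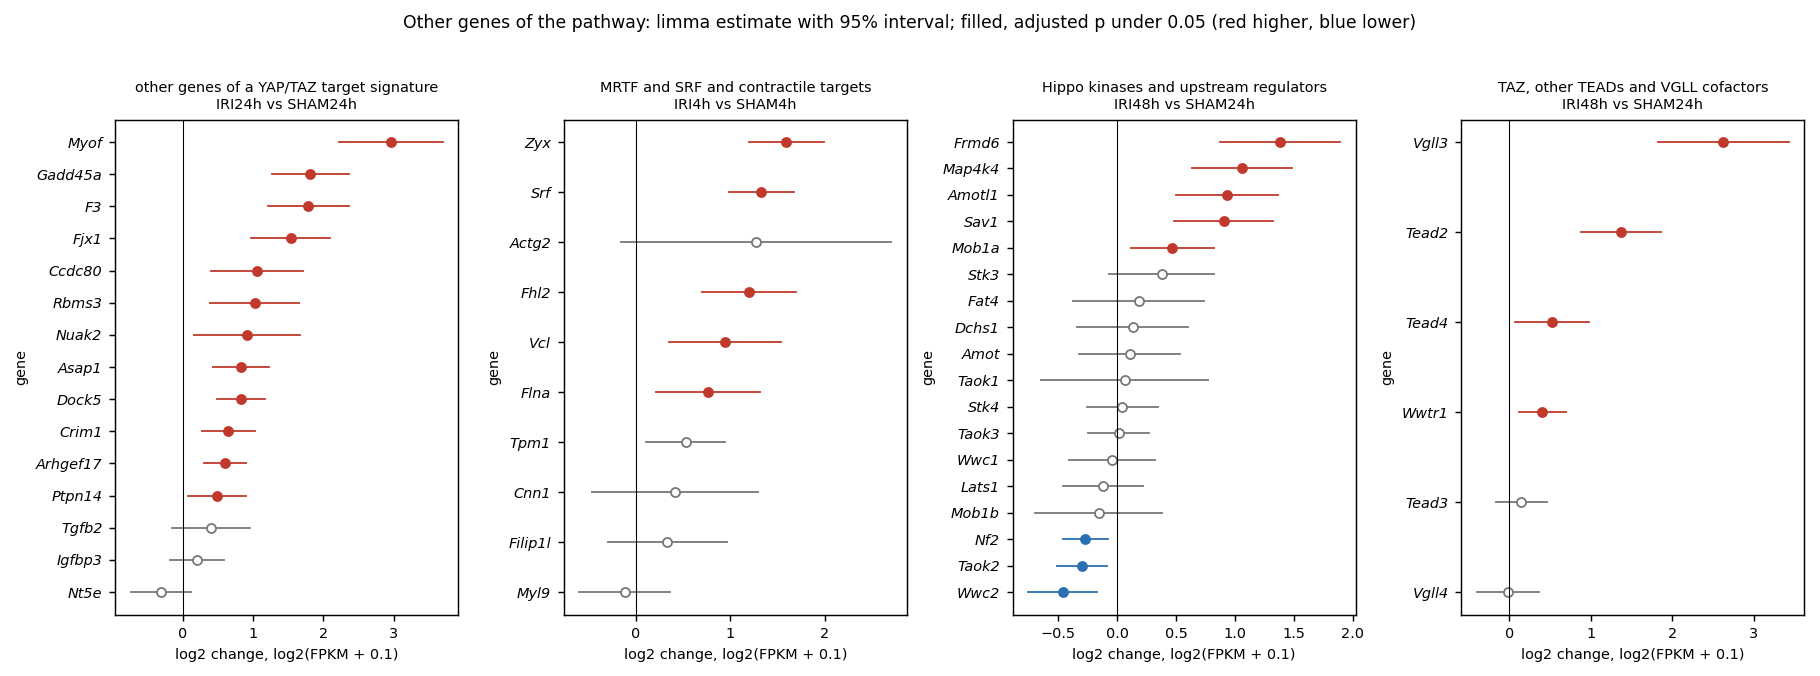
Log2 change with 95% interval of the genes tested in 4 lists, each at the time point set for it, filled where the adjusted p was under 0.05 (red, higher; blue, lower). In the YAP and TAZ signature 12 of 15 genes are higher at 24 hours, led by *Myof* at 2.96, while of 18 Hippo regulators 5 are higher and 3 lower at 48 hours.

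Over the means of the 16 groups, the genes whose pattern was most like each member differed between members, among 13208 protein-coding genes. For *Cyr61* they were *Ier2*, *Trib1* and *Junb*, with Pearson r of 0.97, 0.97 and 0.96. For *Axl* they were *Wipf1*, *Unc5a* and *Ank* (0.98, 0.98 and 0.98), and for *Ankrd1* they were *Krt19*, *Loxl1* and *S100a14* (0.96, 0.96 and 0.95). For *Amotl2* they were *Bcar1*, *Rusc2* and *Krt8* (0.97, 0.96 and 0.94), and for *Ctgf* they were *Rtn4rl2*, *Ctla2b* and *Slc43a3* (0.93, 0.93 and 0.91). For *Tead1* they were *Cobl*, *Ano6* and *Crim1* (0.92, 0.87 and 0.87), for *Yap1* *Cdsn*, *Oxsr1* and *Eif4enif1* (0.93, 0.92 and 0.92), and for *Lats2* *Nkain1*, *Il6st* and *Pam* (0.89, 0.88 and 0.88). *Krt8* and *Crim1* belong to the injured tubule and the YAP and TAZ lists.

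Among the members, r over the 16 means was highest between *Ankrd1* and *Axl* at 0.85 and between *Cyr61* and *Amotl2* at 0.83. It was lowest between *Cyr61* and *Yap1* at -0.10. These values describe 16 points that include controls and hold no independent replicates of the time course. For *Tead1* and *Amotl2*, all 3 likest genes stayed the same when the 49 libraries were used in place of the means, and for *Ankrd1* none did.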

How the data were processed

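Whole-kidney RNA of 49 mice was sequenced by the authors as unstranded paired reads of poly(A) RNA, aligned to mm10 (GRCm38.p3) with STAR 2.5.0b and a GENCODE index, and stripped of duplicates before counting. The authors used DESeq2 for their own tests. The deposited values are FPKM per gene and library, and the tool that made FPKM from counts is not given in the sources used here. Without strand, reads of overlapping and antisense genes cannot be told apart.

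Groups and replicates came from the sample labels, and all libraries were kept. The label text does not say more than that replicates are separate kidneys. On log2(FPKM + 0.1), limma 3.58.1 (R 4.3.3) fitted 1 model with a mean for each of 16 groups, moderated with a mean-variance trend and robust to outlying genes. Tests were two-sided, with Benjamini-Hochberg adjustment over 14895 genes in each comparison. The filter kept genes that reached an FPKM of 1 in 3 or more libraries. The code was tested on simulated data. Reads per library were estimated from FPKM and GENCODE M21 exon lengths. Members and lists were chosen with earlier results of these data known. Named genes are the 8 members, up to 4 genes per list that changed most at a set time, and the 3 likest genes per member. *Mob1a*, *Nf2*, *Taok2*, *Wwc2*, *Lats1*, *Mertk*, *Nt5e*, *Igfbp3* and *Tgfb2* were named after their values were seen. Alternatives were quantile normalization, no filter, a pseudocount of 1 or 0.01, plain limma moderation, other controls, only the groups compared, a replicate block, and each library left out. Tables and plots used Python 3.11.15, pandas 2.3.3, numpy 2.4.6 and matplotlib 3.10.9.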

Additional observations from a re-analysis of the deposited data

Results flagged for a closer look

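The change against the own sham group differed between 4 and 24 hours for 5 members, by a test of the difference itself in limma. It was lower at 24 hours for *Cyr61* (-2.22, adjusted p = 0.0156), and higher for *Ctgf* (1.75, adjusted p = 0.00692), *Lats2* (0.52, adjusted p = 0.0236), *Axl* (1.86, adjusted p = 4.0e-04) and *Yap1* (0.66, adjusted p = 6.1e-04). For *Ctgf* the IRI kidneys of the 2 times differed by -0.02 and the sham kidneys by 1.77 on the log2 scale. Between 28 days and 12 months the change was lower at 12 months for *Ankrd1* (-2.56, adjusted p = 0.0137) and *Axl* (-1.59, adjusted p = 0.0206).

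In IRI6m, the 1 group of 4 kidneys, *Yap1* replicate 1 at 19.5 FPKM stood apart from the others at 17.0 to 17.5 FPKM. Its gap was 0.832 of the range, just past the limit of the Dixon test at the 95% level, which chance alone passes in about 1 of 20 groups.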

How the results depend on the processing

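Of 2544 values of member changes under alternatives, 2377 stayed on their side of the threshold, 128 missed it, 38 newly passed it and 1 reversed. The reversed value was *Tead1* at 2 hours, -0.11 with kidneys without surgery as the control. A change of sign was counted as reversed only where a fit called the change, so values that stayed uncalled could differ in sign. *Amotl2* in IRI14d against IRI7d, -0.10 in the main fit, ran from -0.34 to 0.10 on leaving out 1 library. Counts of members called moved in 44 of 636 values, and the cause was not tested. A count was taken as moved only where it changed by more than a set factor or went to or from 0. Smaller changes are thus left out of the 44. Members higher at 28 days, 6 in the main fit and 4 to 5 on leaving out 1 library, were not taken as moved. Higher in IRI12m against SHAM12m, 2 became 1 with quantile normalization, with no filter, with a pseudocount of 1 and with only the groups compared. Higher in IRI6m against NORM9m, 2 became 1 with no filter, with the replicate block and with only the groups compared. Between IRI14d and IRI7d, 0 higher became 2 with quantile normalization, and 1 lower became 0 with no filter and with only the groups compared. With no filter, the members lower became 0 for the 28-day to 12-month difference of effects (from 2), 0 for the 4 to 24-hour difference (from 1) and 1 for IRI12m against IRI28d (from 3). Lower in IRI2h, 0 became 1 (*Yap1*) with all 9 sham kidneys or kidneys without surgery as the control. Lower in IRI6m against SHAM12m, 1 became 2 with quantile normalization, and 0 with no filter, with all 9 sham kidneys and with the replicate block. Leaving out 1 library gave 0 to 3 members higher in IRI12m against SHAM12m, 1 to 2 higher and 0 to 1 lower in IRI6m against NORM9m, and 0 to 2 lower in IRI6m against SHAM12m. It gave 0 to 3 lower for the 28-day to 12-month difference, 1 to 3 for IRI12m against IRI28d and 0 to 2 for IRI14d against IRI7d.

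Replicate numbers showed no pairing of the kidneys on average, with a mean correlation of deviations of 0.0010 over 360 pairs that share a number. Single pairs ran from -0.36 to 0.58 and 63 of the 360 were over 0.1, so the mean does not settle whether some groups were paired. The replicate block lost 3 member calls (*Lats2* in IRI6m against NORM9m, *Tead1* in IRI6m against SHAM12m and *Yap1* at 72 hours), gained *Cyr61* at 12 months (1.49, adjusted p = 0.0381), and took the genes higher in IRI6m against NORM9m from 931 to 455. Quantile normalization moved the share of higher calls among all genes by over 10 percentage points in 20 of 28 comparisons, from 4847 higher and 2289 lower to 3566 and 3430 at 24 hours and from 5031 and 2161 to 3605 and 4060 at 7 days, and shifted the median of all genes by 0.20 and 0.24 on the log2 scale there. With only the groups compared, genes higher in IRI4h against IRI2h went from 2047 to 102. Over 49 libraries, at most 1 of the 3 likest genes was shared with the main list for 5 of 8 members. Depth limits *Ankrd1* most, with 59.0 reads at its lowest.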
